A study of Mus musculus with 4 samples.

Results

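Peaks of accessible chromatin were examined at 10 genes of the Notch pathway: the receptor genes Notch1, Notch2, Notch3 and Notch4, the ligand genes Dll1, Dll4, Jag1 and Jag2, the nuclear factor gene Rbpj and the target gene Hes1. They are 10 of 21887 protein-coding genes in the RefSeq table of assembly GRCm38.p6, the mm10 build of the deposited peaks. A peak was assigned to a gene when its summit, the base of highest signal, lay inside the gene or within 10 kb of either end. The libraries are called WT1 and WT2 (replicates 1 and 2 of wild-type mice) and KI1 and KI2 (replicates 1 and 2 of miR-187 mice). By this rule 7 of 9452 peaks belonged to the 10 genes in WT1, 9 of 12298 in WT2, 3 of 7496 in KI1 and 1 of 1483 in KI2. The 20 peaks fell at 7 of the genes, and no library had a peak at Dll1, Jag2 or Hes1.

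The libraries were made by ATAC-seq, an assay in which a transposase inserts sequencing adapters where DNA is exposed, from hearts of newborn (P0) mice. WT mice were compared with knock-in mice whose Rosa26 site, on a C57BL/6J background, holds exogenous mouse miR-187, a single-copy construct driven by the promoter and enhancer of Tek (Tie2), an endothelial gene. There were 2 libraries per group, and the labels do not say whether each came from its own animals, so any spread between replicates may be technical. The labels do not state the genotype further, and the study's description of its mouse accessibility data names +/+ and KI/KI mice, the latter with the insertion on both alleles. The study describes the cells as captured with CD31 beads, while the labels name the heart as the tissue.

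Notch signalling passes between touching cells. A ligand of the Delta or Jagged family on one cell binds a Notch receptor on its neighbour, proteases release the receptor's intracellular part, and this part enters the nucleus, joins the DNA-binding protein Rbpj and switches on genes of the Hes and Hey families. In the heart the pathway is known for its part in the endocardium, in valve and trabecula formation and in the choice between arterial and venous endothelium. Notch1, Notch4, Dll4 and Jag1 are well known in endothelium, and Notch3 is best known in the mural cells around vessels.

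The lists differed in depth, which sets what can be called a peak. Read totals were not used here, so the background read density implied by the peak values was taken instead. It was 1752 reads per Mb in WT1, 5227 in WT2, 2016 in KI1 and 1032 in KI2, and the smallest number of reads at the summit of any listed peak was 4, 7, 5 and 4 in that order. Of 12 endothelial marker genes, 3, 7, 6 and 2 had a peak by the same rule, and no marker of the 12 had one in all 4 libraries. Of 10 cardiomyocyte markers 3, 3, 2 and 0 had one, of 6 fibroblast markers 4, 5, 1 and 0, of 6 immune markers 3, 1, 1 and 0, of 6 smooth muscle and pericyte markers 1, 0, 0 and 1, and of 5 erythroid markers 1, 1, 0 and 0. More fibroblast, cardiomyocyte and erythroid genes thus had a peak in both WT libraries than in either miR-187 library, as did more of all protein-coding genes, at 38% and 47.1% against 33.5% and 6.75%. The part of depth and of other cell types in the differences below was not tested. In libraries made from many cells together, fewer cells of a type and less accessible chromatin per cell cannot be told apart.

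The comparison asked whether Notch pathway genes carried fewer peaks in the miR-187 libraries. A peak was listed at 3 of the 10 genes in WT1 (30.0%, 95% Wilson interval 10.8 to 60.3), 6 in WT2 (60.0%, 31.3 to 83.2), 3 in KI1 (30.0%, 10.8 to 60.3) and 1 in KI2 (10.0%, 1.79 to 40.4). Among all protein-coding genes the shares were 38%, 47.1%, 33.5% and 6.75%, and each lay inside the interval of the Notch genes in the same library. The mean was 4.5 ± 2.12 genes (SD, n = 2) for WT and 2.0 ± 1.41 (SD, n = 2) for miR-187, and this difference of -2.5 genes gave p = 0.667 by a 2-sided exact permutation test. The groups overlapped, since WT1 and KI1 had equal numbers. With a window of 50 kb in place of 10 kb the numbers were 9, 9, 7 and 1 genes and no longer overlapped, and the difference was -5 (exact permutation p = 0.333, the smallest possible). Over all genes this window gave 58.9%, 65.3%, 53.2% and 14.4%. Inside the gene body alone the numbers were 2, 4, 3 and 1 genes, a difference of -1 with overlapping groups (exact permutation p = 0.667), where the shares over all genes were 21.4%, 25.9%, 17.4% and 3.74%.

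With every listed peak counted, the number of peaks at the 10 genes did not overlap between groups. It was 7 and 9 in WT1 and WT2 and 3 and 1 in KI1 and KI2, with means of 8.0 ± 1.41 and 2.0 ± 1.41 (SD, n = 2 each) and a difference of -6.0 peaks. The exact permutation p was 0.333, the smallest that 2 libraries against 2 can give, so no group difference tested here can give a smaller p. As a share of all peaks of a list, these were 0.0741% (95% Wilson interval 0.0359 to 0.153), 0.0732% (0.0385 to 0.139), 0.04% (0.0136 to 0.118) and 0.0674% (0.0119 to 0.381). These intervals, which cover counting error only, overlapped for every pair of libraries. Per Mb of the genes and their flanks there were 11, 14.2, 4.73 and 1.58 peaks at the 10 genes, against 5.97, 8.1, 4.93 and 0.872 over the same windows of all protein-coding genes. Taking the 1483 strongest peaks of each list, the numbers of genes and of peaks both became 0, 0, 1 and 1, so that each difference turned to 1 in the other direction. These 1483 peaks are the whole list of KI2, so its count could not change, while the other lists were cut. Over all genes these lists of equal length gave shares of 8.54%, 9.13%, 8.6% and 6.75%. Peaks were also limited to a −log10 q of at least 5, where q is the peak caller's adjusted p-value. Genes and peaks then both numbered 0, 3, 1 and 0. The groups overlapped there and each difference was -1. The share over all genes is not given for this threshold.

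Gene by gene, no Notch gene followed the groups. None of the 10 had more peaks in each WT list than in each miR-187 list, a pattern shown by 11.6% of all genes, and none had the reverse pattern, shown by 0.174%. None was limited to the WT group with a peak in WT1 and WT2 alone, against 9.04% of all genes, and none to KI1 and KI2 alone, against 0.169%. Notch4 was the 1 gene with a peak in all 4 lists, where 3.36% of all genes had one, and 3 genes had none in any list, where the share over all genes was 41.5%. Of the other 6 genes, 4 had their peaks in a single library: Notch1, Notch3 and Dll4 in WT2 and Notch2 in WT1. Over all genes 17% had peaks in a single list.

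**Figure D1:**
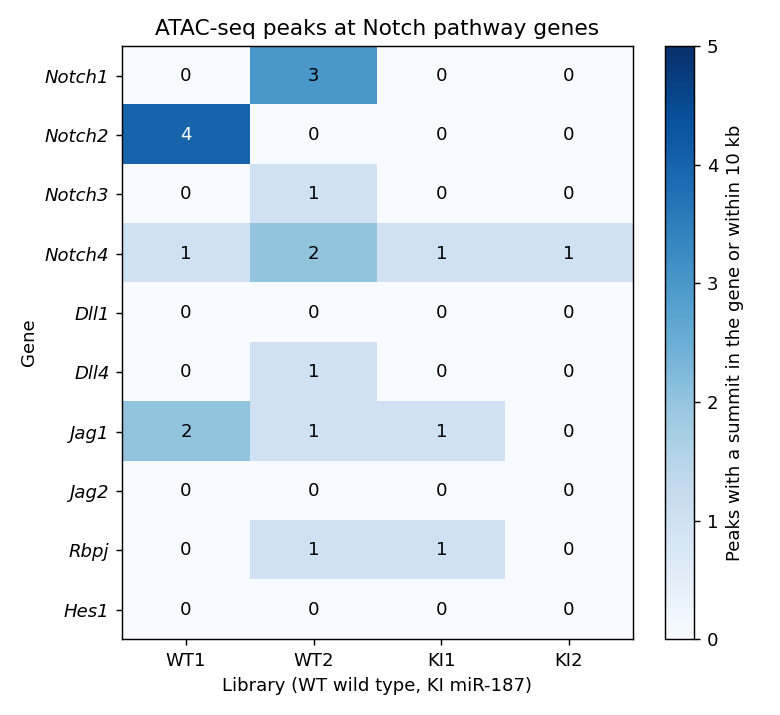
Number of peaks at each Notch pathway gene (rows) in each library (columns), counting summits in the gene or within 10 kb. Notch4 has a peak in all 4 libraries, Notch2 has 4 peaks in WT1 and 0 elsewhere, and Dll1, Jag2 and Hes1 have 0 in each.

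Receptor genes held 13 of the 20 peaks. Notch1, the receptor most studied in the endocardium, lies on the minus strand of chromosome 2 from 26457902 to 26503822. It had 3 peaks in WT2 and 0 in WT1 and in KI1 and KI2. All 3 lay inside the gene, with summits 12.4, 20.5 and 28.5 kb from its 5′ end and so spaced 8.02 and 8.03 kb apart. From the 5′ end they were chr2:26491243-26491442 with a fold enrichment over background of 4.08 and a −log10 q of 4.37 (q is the peak caller's adjusted p-value, so a larger −log10 q is a stronger peak), chr2:26483161-26483447 with 3.63 and 2.44, and chr2:26475167-26475461 with 4.39 and 3.93. All 3 ranked below the median −log10 q of their list, at percentiles 43.7, 6.04 and 34.6, and no peak was listed at the start of Notch1 in any library.

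Notch2 showed the opposite split between the WT replicates. This receptor gene runs on the plus strand of chromosome 3 from 98013538 to 98150367 and had 4 peaks in WT1 and 0 in the other libraries. The first, chr3:98013244-98013668, had its summit 160 bp upstream of the start, with a fold enrichment of 4.69, a −log10 q of 2.72 and 8 reads at the summit. The other 3, chr3:98026002-98026228, chr3:98063403-98063648 and chr3:98074938-98075163, lay 12.6, 50.0 and 61.6 kb into the gene with fold enrichments of 5.0, 4.27 and 5.56. In WT2, the deepest library, the nearest summit was 232 kb from the gene, and in KI1 and KI2 it was 245 and 1910 kb away. The 2 WT libraries therefore differed at Notch2 as much as WT1 and either miR-187 library did.

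The peak at the Notch2 start covered the whole promoter window, the 250 bases before and 50 after the start. The window (chr3:98013288-98013587, plus strand, RefSeq, GRCm38.p6) is printed because it is 1 of the promoters that a peak covered, and it was chosen after the values were seen, like the Rbpj window further on. Capitals mark GGGCGG or its reverse complement CCGCCC, the core bound by Sp1-type factors, and the summit of the peak was at base 91 from the 5′ end.
Notch2 promoter: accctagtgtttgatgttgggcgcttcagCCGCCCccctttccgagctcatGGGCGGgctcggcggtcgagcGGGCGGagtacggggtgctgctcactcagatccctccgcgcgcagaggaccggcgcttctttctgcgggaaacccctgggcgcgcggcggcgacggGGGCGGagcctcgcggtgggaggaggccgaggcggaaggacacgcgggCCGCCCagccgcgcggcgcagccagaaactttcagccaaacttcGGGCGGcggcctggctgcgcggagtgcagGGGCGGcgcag

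The window held 7 matches to GGGCGG on the 2 strands, a GC content of 73.0% and 41 CpG dinucleotides, against medians of 56.3% and 13 over 21263 windows of the table. Such sequence is what a CpG-rich promoter looks like, and it does not say whether a factor is bound. On either strand, GGGCGG was present in the windows of 6 of the 9 Notch genes with a listed start (Notch1, Notch2, Notch3, Dll4, Jag2 and Rbpj) and of 49.2% of 17492 genes.

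Notch3, the receptor gene on the minus strand of chromosome 17 from 32120820 to 32166896, had 1 peak in WT2 and 0 in the other libraries. This peak, chr17:32173231-32173517, lay 6.45 kb upstream of the gene with a fold enrichment of 5.83 and a −log10 q of 5.68, at percentile 63.8 of its list. The nearest summits in WT1 and in KI1 and KI2 were 84.3, 41.2 and 264 kb from the gene.

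Notch4, the receptor gene whose expression is centred on endothelium, lies on the plus strand of chromosome 17 from 34564286 to 34588543. It had 1 peak in WT1, 2 in WT2, 1 in KI1 and 1 in KI2, so its count separated neither group. The 3 deepest libraries shared a region near the 3′ end of the gene, chr17:34587293-34587984, in which their summits lay within 185 bp of each other and 748 to 933 bp before the end. The fold enrichment there was 4.37 in WT1, 4.44 in WT2 and 5.99 in KI1, and the −log10 q was 2.7, 6.02 and 6.29. Within their lists, which differ in length and depth, these peaks ranked at percentiles 26.9, 68.0 and 84.0. The median fold enrichment of the whole lists was 5.18, 5.0 and 5.56 in the same order, and a difference between libraries at this region was not tested.

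The region lies inside Notch4, and the next gene, Gpsm3, begins 1262 bp beyond the end of Notch4. The second peak of WT2, chr17:34586861-34587229, was next to it with a fold enrichment of 3.6 and a −log10 q of 3.34. The peak of KI2, chr17:34582398-34582597, did not overlap the others. It lay 18.3 kb into the gene with a fold enrichment of 5.26, a −log10 q of 2.61 and 7 reads at the summit. A peak in all 4 lists at Notch4 was therefore a shared region in 3 libraries and a separate one in the other, and no library had a peak at the Notch4 start. The Notch4 promoter window was the only 1 among the Notch genes with TGACTCA, the AP-1 motif, which 5.4% of genes hold on either strand.

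**Figure D2:**
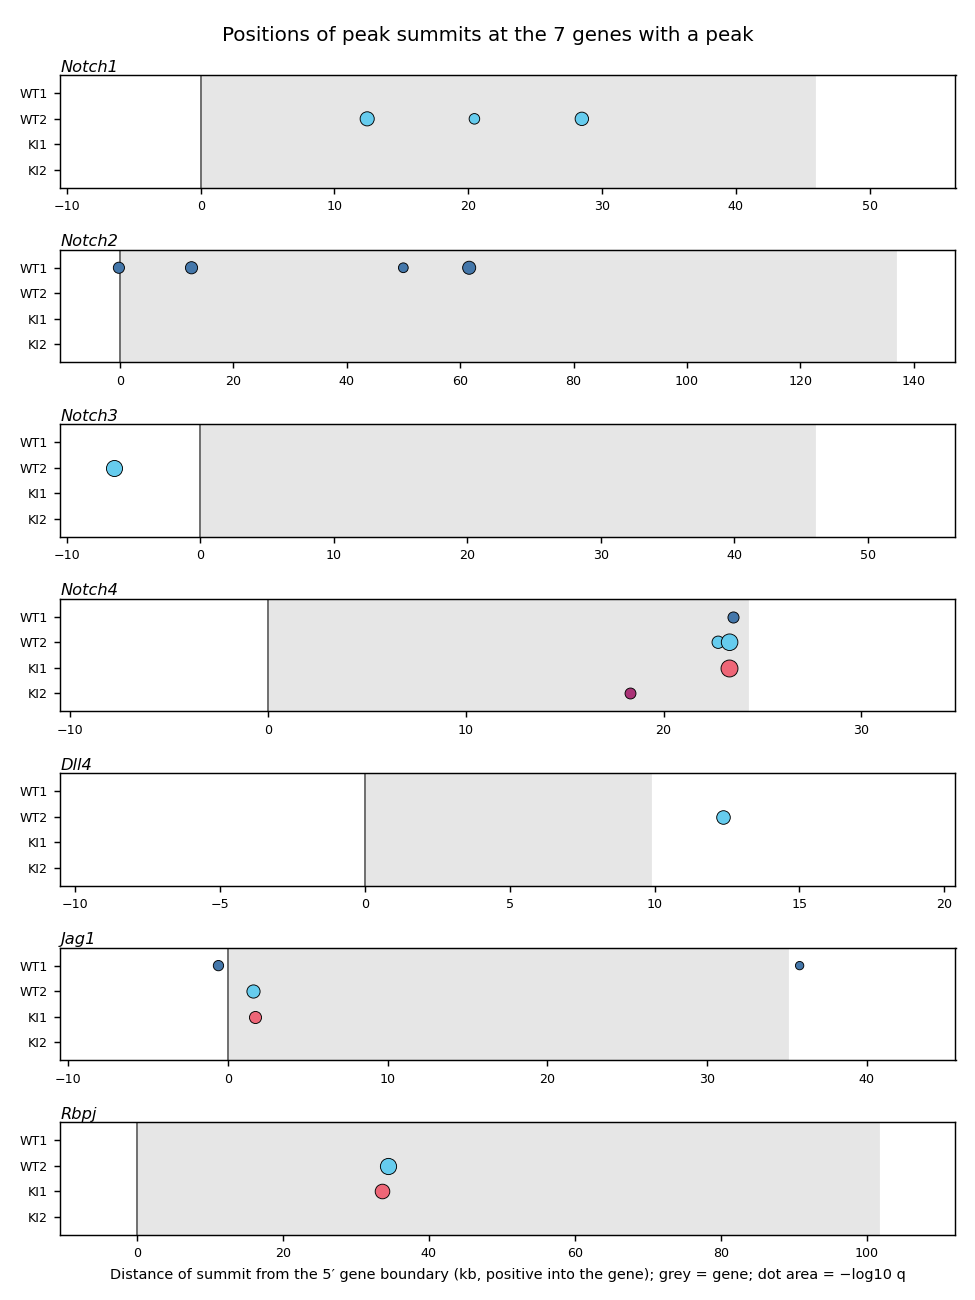
Summit positions at the 7 genes with a peak, in kb from the 5′ end of the gene as the table gives it, drawn along the strand of each gene, which is shaded; rows are libraries and dot area is proportional to −log10 q. Summits line up between libraries near the 3′ end of Notch4 and just inside the start of Jag1, while those of Notch1, Notch2, Notch3 and Dll4 occur in 1 library each.

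Ligand genes had 5 peaks, 4 of them at Jag1. Jag1, a ligand gene on the minus strand of chromosome 2 from 137081451 to 137116520, had 2 peaks in WT1, 1 in WT2, 1 in KI1 and 0 in KI2. WT2 and KI1 shared the region chr2:137114677-137115035, 1584 and 1691 bp into the gene, with fold enrichments of 3.75 and 4.42 and −log10 q of 3.81 and 3.2. In WT1 the peak at this end was upstream, at chr2:137116944-137117143, 591 bp before the start with a fold enrichment of 4.17 and a −log10 q of 2.33. Each of the 3 libraries thus had a peak within 2 kb of the Jag1 start, on either side of it, and the WT replicates did not share a region.

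The other Jag1 peak of WT1, chr2:137080624-137081022, was 738 bp past the 3′ end and inside the neighbouring gene Slx4ip. With a fold enrichment of 3.85, a −log10 q of 1.53 and 5 reads at the summit, it had the lowest −log10 q of the 20. Dll4, the Delta ligand gene known for its role in arterial and sprouting endothelium, runs on the plus strand of chromosome 2 from 119325784 to 119335666. It had 1 peak in WT2, chr2:119337977-119338225, 2.47 kb past its 3′ end with a fold enrichment of 4.46 and a −log10 q of 4.05, and 0 in WT1 and in KI1 and KI2.

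No library listed a peak at the ligand genes Dll1 (chr17:15367354-15376932) and Jag2 (chr12:112907803-112929812). At Dll1, a Delta ligand gene, the nearest summit was 19.1 and 19.7 kb away in WT1 and WT2 and 121 and 150 kb away in KI1 and KI2. These summits were nearest to other genes, Fam120b, Psmb1 and Pdcd2. At Jag2, a Jagged ligand gene, the nearest summits lay 12.6 and 32.0 kb away in the WT replicates and 12.7 and 640 kb away in the miR-187 replicates. A gene absent from a list is one where no peak passed the threshold at that depth, which does not show that its chromatin is closed.

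Rbpj, the gene of the DNA-binding protein shared by all Notch receptors, had 0 peaks in WT1, 1 in WT2, 1 in KI1 and 0 in KI2. The gene spans chr5:53555779-53657445 on the plus strand, and its 2 listed RefSeq starts are 140 bp apart and 34.6 kb inside that span. The peak of WT2, chr5:53589918-53590442, had its summit 175 bp upstream of the nearer start, with a fold enrichment of 4.9 and a −log10 q of 5.75. That of KI1, chr5:53589270-53589469, lay 966 bp upstream with a fold enrichment of 5.6 and a −log10 q of 4.67. Both ranked above the median of their lists, at percentiles 64.6 and 63.8, but the peaks did not overlap and were 448 bp apart. The presence of a peak at Rbpj did not follow the groups.

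The promoter window at the first of these starts (chr5:53590096-53590395, plus strand, RefSeq, GRCm38.p6) lay wholly inside the peak of WT2, whose summit was at base 76. It is printed because its capitals mark TGGGAA and its reverse complement TTCCCA, the core of the motif that Rbpj protein itself binds.
Rbpj promoter: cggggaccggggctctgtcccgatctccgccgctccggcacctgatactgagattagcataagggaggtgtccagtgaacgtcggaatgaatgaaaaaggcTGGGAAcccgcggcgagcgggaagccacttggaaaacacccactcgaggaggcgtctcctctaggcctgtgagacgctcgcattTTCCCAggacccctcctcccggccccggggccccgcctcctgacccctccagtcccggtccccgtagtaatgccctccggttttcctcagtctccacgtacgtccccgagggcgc

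The window held 2 matches to TGGGAA and a GC content of 64.7%. Rbpj was the only 1 of the 9 Notch genes with a listed start that had TGGGAA in a promoter window, and 27.4% of genes had it on either strand. The longer GTGGGAA, which contains TGGGAA, was in 0 of the 9 and in 6.96% of genes, and CACGTG, the E-box bound by Hes and Hey type factors among others, was in 0 of the 9 and in 8.91%. A match is a description of the sequence, and its absence says only that these letters are not in the window.

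Hes1, the repressor gene that is a classical direct target of the pathway, lies on chromosome 16 from 30065357 to 30067796, and no library had a peak within 10 kb of it. The nearest summits were 23.9 and 40.5 kb away in WT1 and WT2 and 56.6 and 669 kb away in KI1 and KI2. Those of the first 3 libraries had Hes1 as their nearest gene and lay at different positions.

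Peaks close to gene ends were considered separately, since promoters are at the 5′ end. A summit within 1 kb of either end was found at 3 of the 10 genes in WT1 (Notch2, Notch4 and Jag1), 1 in WT2 (Notch4), 1 in KI1 (Notch4) and 0 in KI2. Over all genes the shares were 21%, 29.9%, 19.4% and 3.07%. The WT mean was 2.0 ± 1.41 genes and the miR-187 mean 0.5 ± 0.707 (SD, n = 2 each). They differed by -1.5 (exact permutation p = 0.667), and the groups overlapped. Within 3 kb the numbers were 3, 3, 2 and 0 genes, which did not overlap, a difference of -2 (exact permutation p = 0.333). The shares over all genes within 3 kb were 25.3%, 35.3%, 23.1% and 3.86%. Counting instead summits within 1 kb of a listed RefSeq start, a rule added after the data were seen, Notch2 and Jag1 qualified in WT1, Rbpj in WT2 and in KI1, and none in KI2. The shares over 17492 genes with a listed start were 22.4%, 32.2%, 21% and 3.23%. No gene of the 9 had a start peak in both WT libraries, and the share of all genes with one in both is not given here.

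Most peaks at the Notch genes in WT1 and WT2 ranked below the median of their lists, as did the only peak of KI2. In KI1, 2 of the 3 ranked above it. The lists differ in length and depth, so these ranks describe peaks within a list and do not compare the groups. Fold enrichment ranged from 3.6 to 5.99 and −log10 q from 1.53 to 6.29, and 6 of the 20 exceeded the median −log10 q of their own list. The median percentile was 26.9 in WT1, 36.5 in WT2 and 63.8 in KI1, and the peak of KI2 was at 38.9. Between 5 and 22 reads supported a summit.

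**Figure D3:**
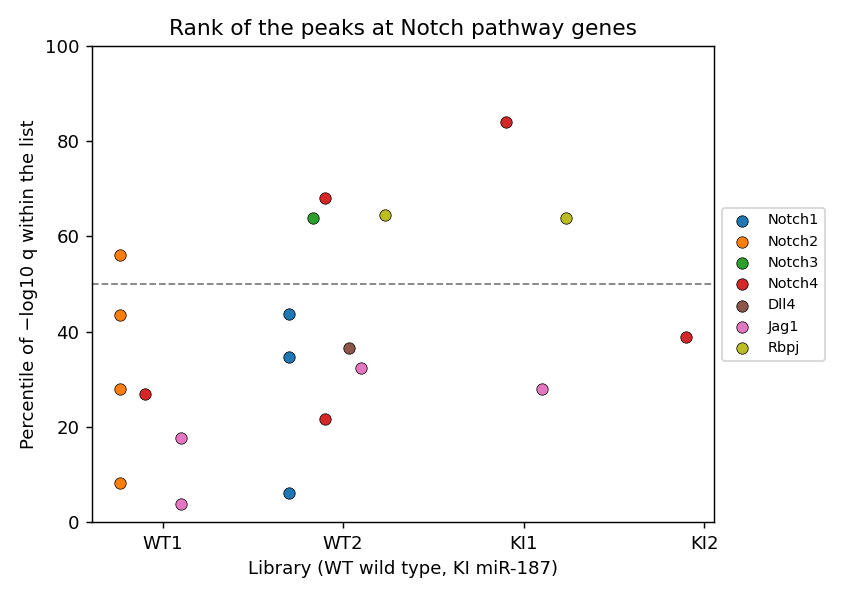
Percentile of the −log10 q of each of the 20 peaks among all peaks of its library's list (vertical axis, 0 to 100), by library, with genes in colour and the list median as a dashed line. The highest point is the Notch4 peak of KI1 at 84.0, and 6 peaks lie above the median.

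Whether the peaks overlapped between libraries was examined beside depth. Merging overlapping peaks gave 17 regions at the 10 genes, of which 15 were found in 1 library, and over all 20919 regions of the genome 67.6% were. The 2 shared regions, at Notch4 and Jag1, each joined WT and miR-187 libraries. There were 0 regions found in WT1 and WT2 alone, a pattern of 8.62% of all regions, and 0 found in KI1 and KI2 alone, a pattern of 0.158%. These counts rest on the demand for both replicates: with WT1 or WT2 left out, 7 or 6 regions were found in the remaining WT library and neither KI1 nor KI2, and with KI1 or KI2 left out, 1 region was found in the remaining miR-187 library alone. The same patterns covered 48.4%, 43.2%, 4.24% and 13.8% of all regions in that order.

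Scaled by background density, the 9 peaks of WT2 would have 2.37 to 4.35 reads at the summit in KI2, and 1 of 9 would reach the 4 reads of the weakest peak listed there. Of the 7 peaks of WT1, 5 would reach these 4 reads in KI2, as would all 3 peaks of KI1, with 6.15 to 8.19 reads. None of the peaks of WT1, WT2 or KI1 at the Notch genes overlapped a peak in KI2, whose list is the shortest, at 1483 peaks. At the density of KI1, 8 of the 9 would reach its minimum of 5 reads, and 2 of the 9 overlapped a peak there. At the density of WT1 all 9 would reach its minimum of 4 reads, and 1 of the 9 overlapped a peak there. All 7 peaks of WT1 would have 14.9 to 29.8 reads in WT2, above its minimum of 7, and 1 overlapped a peak there. The same number, 1 of 7, overlapped a peak in KI1. These overlaps were not tested. Reaching the lowest read number of a list does not mean that a peak would be called, since calling also depends on local background. Shares of all peaks that overlap between any pair of lists are not given here, so the counts are not read as particular to the Notch genes.

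Other genes of the pathway were then counted, using 34 genes of ligand and receptor processing, signal transmission and targets. A peak in the gene or within 10 kb was found at 20 of 34 in WT1 (58.8%), 27 in WT2 (79.4%), 18 in KI1 (52.9%) and 5 in KI2 (14.7%). The means were 23.5 ± 4.95 and 11.5 ± 9.19 genes (SD, n = 2 each), and they differed by -12 (exact permutation p = 0.333, the smallest possible). The shares over all genes, 38%, 47.1%, 33.5% and 6.75%, were ordered in the same way and did not overlap between groups either. They lay below the Wilson intervals of the 34 genes in WT1 (42.2 to 73.6), WT2 (63.2 to 89.7) and KI1 (36.7 to 68.5) and inside that in KI2 (6.45 to 30.1), and gene length was not matched. Among the 34 genes the groups did not overlap when all peaks and the 10 kb window were used. WT1 and KI1 differed by 2 genes, whereas the miR-187 replicates differed by 13. The difference between group means was -5.5 without KI2 and -18.5 without KI1. With a window of 50 kb the numbers were 28, 32, 28 and 13 of 34, and the groups overlapped, while all genes gave 58.9%, 65.3%, 53.2% and 14.4%. With the 1483 strongest peaks per list the counts were 6, 5, 7 and 5, and the shares over all genes 8.54%, 9.13%, 8.6% and 6.75%. Among peaks with −log10 q of 5 or more the counts were 6, 17, 8 and 0, and the groups overlapped. The difference was then -7.5 (exact permutation p = 0.667), and the share over all genes is not given for this threshold.

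**Figure D4:**
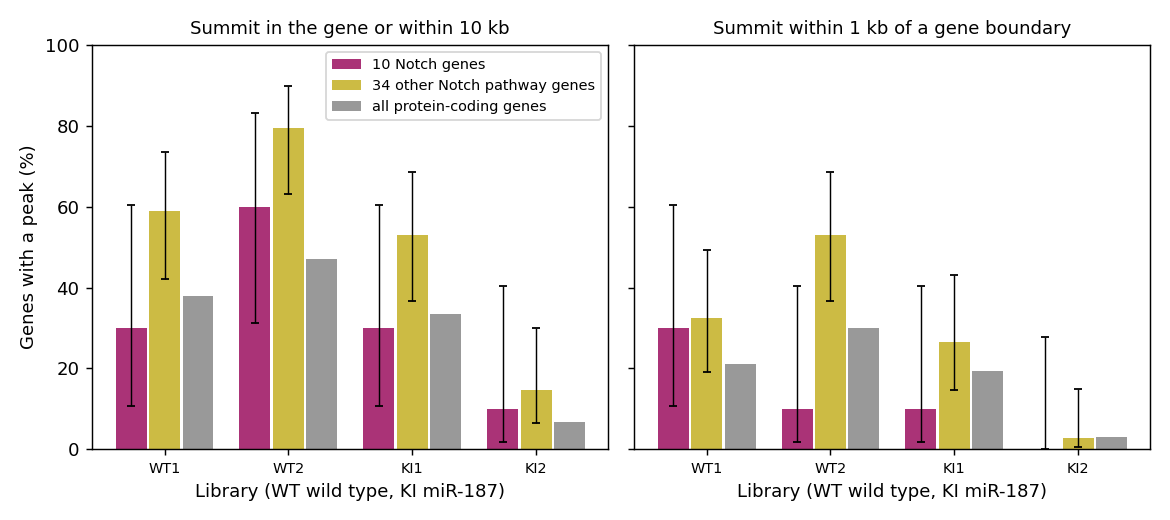
Percentage of genes with a summit in the gene or within 10 kb (left) and within 1 kb of a gene end (right) in each library, for the 10 Notch genes, 34 other Notch pathway genes and all 21887 protein-coding genes; error bars are 95% Wilson intervals. The share for all genes falls from 47.1% in WT2 to 6.75% in KI2 in the left panel, and the bars of the Notch genes have intervals that span it.

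Within 1 kb of a gene end, 11, 18, 9 and 1 of the 34 genes had a peak (32.4%, 52.9%, 26.5% and 2.94%), against 21%, 29.9%, 19.4% and 3.07% of all genes. Such a peak was present in WT1 and WT2 alone at 4 of the 34, against 5.76% of all genes, and in KI1 and KI2 alone at 0, against 0.064%. Mib1, the ubiquitin ligase that lets ligands be internalised, had −log10 q of 4.43 and 6.54 in WT1 and WT2. Snw1, a nuclear cofactor of the Rbpj complex, had 3.68 and 5.68, and it also had a peak elsewhere in its window in KI1. Ncstn, a subunit of gamma-secretase, had 2.7 and 4.09, and Adam10, the protease that makes the cut before gamma-secretase, had 2.04 and 2.67.

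At Adam17, Maml1 and Maml2, genes of receptor cleavage and coactivation, both WT lists and KI1 had a peak at a gene end. Adam17, a protease related to Adam10, had fold enrichments of 5.77 and 5.16 in WT1 and WT2 and 10.2 in KI1. Maml2, a coactivator gene, had 5.81, 3.12 and 7.66 in the same order. These genes were named after their values were seen, as were the targets that follow. The target genes of the Hey family had a peak at a gene end in WT2 for Hey1 (−log10 q 1.94), in WT1 and KI2 for Hey2 (3.17 and 2.61) and in KI1 for Heyl (3.77). The target Nrarp, a feedback inhibitor of the pathway, had one in WT1 (1.89) and KI1 (8.84). As with Hes1, none of these target genes had a pattern that followed the groups.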

How the data were processed

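ATAC-seq peak lists of 4 mouse heart libraries were used, 1 per library, in the 10-column narrowPeak layout. The submitters' processing notes name Bowtie2 2.2.6, SAMtools 1.10, MACS2 2.2.7.1, deepTools 3.3.2, HOMER 4.11, FastQC, ChIPseeker, DiffBind and mm10. Calling options, any control and the handling of duplicates are not given in the sources used here, and no read shift at transposase cut sites is stated. The deposited lists give a score, a fold enrichment (ratio) at the summit, and −log10 p-values and −log10 q-values from the authors' peak caller, per peak and without pooling of replicates. These were used to describe or rank peaks within a list.

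The genes and gene lists were chosen with earlier results of these data known. Summits on chromosomes 1 to 19, X and Y were assigned to genes of RefSeq GRCm38.p6. All 10 genes matched by symbol, 9 of them also in the table of starts and promoter windows. Exon and intron positions were not used here. Other pathway genes were to be named where a summit within 1 kb of a gene end was present in all 4 lists, or in both lists of 1 group and neither of the other. Peaks were merged into a region where they shared 1 bp or more. Reads at a summit and the background were solved from fold and −log10 p, as (reads + 1)/(background + 1) with a Poisson tail, within 0.0005. A solution was found for 100% of peaks. Local backgrounds fall on regular steps, and the most frequent background off those steps was taken as the genome-wide level. Divided by 200 bp, this level gave the read density, an inference. Group means were compared by a 2-sided exact permutation test over 6 assignments. Wilson intervals (95%) cover counting error only. Alternatives were a −log10 q of at least 5, equal numbers of peaks, a window of 50 kb, the gene body alone, assignment to the nearest gene, 3 kb around gene ends, 50% reciprocal overlap, a replicate block, listed starts and leaving out each library. Work was done in Python 3.11.15 with pandas 2.3.3 and numpy 2.4.6, tests with scipy 1.17.1, intervals with statsmodels 0.14.6 and plots with matplotlib 3.10.9. Counting and solving were tested on simulated data.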

Additional observations from a re-analysis of the deposited data

How the results depend on the processing

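Each result was recomputed under the alternatives, giving 60 values. Of these, 49 had the direction of the reported value or lay within the spread between replicates, 7 moved further and 4 reversed. All 4 reversals came with an equal number of peaks per list, where the difference of miR-187 from WT was 1 Notch gene with a peak, 1 peak at the Notch genes, 0.5 Notch genes with a peak near a gene end and 0.5 other pathway genes. Fewer peaks were counted there, and KI2 kept its whole list while the other lists were cut, so its counts could not change. The cause was not otherwise tested. Among peaks with −log10 q of 5 or more, the difference in Notch genes with a peak near a gene end was 0. Regions at the Notch genes in both WT lists only numbered 4 of 40 with a window of 50 kb, where 8.62% of all regions have this pattern. Leaving out 1 library gave 0 to 7 such regions, with 7 without WT1, 6 without WT2 and 1 without KI1, and 0 to 1 regions for miR-187, with 1 without either miR-187 library. Then 1 list stands for the group, which relaxes the definition. Leaving out 1 library changed the differences to between -4 and -1 genes, -7 and -5 peaks, -2.5 and -0.5 genes with a peak near an end, and -18.5 and -5.5 other pathway genes. Listed starts were added after seeing the data.

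Replicate numbers are shared between groups, but over 20919 regions the correlation of the deviations of like-numbered libraries was -0.0255, so the numbers were not taken to pair libraries. With the replicate block the differences were -2.5 genes (exact sign-flip p = 1), -6 peaks, -1.5 genes with a peak near an end and -12 other pathway genes (p = 0.5 for each, the smallest possible), and no call changed. At the density of KI2, 1 of the 9 peaks of WT2 at the Notch genes would reach the lowest read number listed, so their absence there cannot be read. Of the 7 peaks of WT1 5 would reach it, as would all 3 of KI1, and 0 of either overlapped a peak there. Reaching it does not mean that a peak would be called, since calling also depends on local background. The absence of these peaks there cannot be read either.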

Other observations

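Between 10 and 50 kb from the 10 Notch genes there were 23 further regions, and 10 of them were found in 2 or more libraries, as were 32.4% of all regions of the genome. Most had another gene as their nearest, and 6 were nearest to the Notch gene itself. None included a peak of KI2, the shortest list, and the share of all regions that did is not given here. These regions were examined after the nearest summits had been seen.

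One of the 6 lay 22.1 kb upstream of Notch1, at chr2:26525666-26526119, and had a peak in WT1, WT2 and KI1. Its fold enrichment was 4.87, 5.42 and 7.34 and its −log10 q was 3.29, 6.28 and 7.77 in that order. In WT2 this was above the −log10 q of each of the 3 peaks inside Notch1. KI1 had the highest values here. Another region of these 3 libraries, chr2:26408833-26409398, lay 48.6 kb from Notch1 and was nearest to Inpp5e. Its fold enrichment was 4.55, 7.25 and 8.85 and its −log10 q was 2.38, 9.3 and 10.1, with KI1 again highest. At the region of the same 3 libraries 37.1 kb from Dll4, chr2:119288448-119288879, nearest to Vps18, the fold enrichment was 6.93, 5.56 and 6.11 and the −log10 q was 6.51, 6.79 and 4.85, so KI1 had the lowest −log10 q and WT1 the highest fold enrichment. A region 46.1 kb upstream of the Rbpj gene, chr5:53509542-53509875, had a peak in both WT libraries (−log10 q 3.09 and 2.83) and in neither miR-187 library. A region 12.6 kb past Jag2, chr12:112895028-112895466, had one in WT1 and KI1 (−log10 q 2.31 and 3.75). The regions 22.1 kb from Notch1, 46.1 kb from Rbpj and 12.6 kb from Jag2 had that gene as the nearest protein-coding gene, which does not assign them to it.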
